A study of Mus musculus with 4 samples.

Results

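The genes that encode the enzymes, carriers and electron acceptors of fatty acid oxidation were followed in 2 populations sorted from cultured mouse CD4 T cells, which are helper lymphocytes. The members were the gene table entries whose symbol stood on a list of 34 genes. All 34 were found among 23284 symbols, each with a single entry. From textbook localization, 21 encode mitochondrial proteins, 8 encode peroxisomal proteins and 3 (Eci2, Crat and Mlycd) encode enzymes found in both organelles. The other 2 are Cpt1c, whose product sits in the endoplasmic reticulum of neurons, and Ppara, a nuclear receptor gene.

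CCR7loCD137hi cells, low in the surface protein CCR7 and high in CD137, were compared with CCR7hiCD137lo cells from the same kind of culture, with 2 libraries of each. Inbred BALB/c mice gave the spleens, and their CD4 cells had been driven toward the interferon-gamma-producing Th1 fate with interleukin-2 at 15 ng/ml together with interleukin-12 at 10 ng/ml before they were sorted. The labels give 4 days of culture in one field and 5 days in another, and they name no other treatment, no genotype and no age. The study asked about acetyl-CoA carboxylase 1, which makes malonyl-CoA for fatty acid synthesis, and T cell memory. CCR7 is the chemokine receptor for homing into lymph nodes. CD137 appears on T cells after activation and costimulates them. Nothing says whether the libraries numbered 1 and 2 came from separate mice or cultures, so each p-value speaks only for the spread of these 4 samples, and that spread may be technical.

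Fatty acids enter mitochondria as carnitine esters, through an outer-membrane transferase, an inner-membrane carrier and an inner transferase. Beta-oxidation then repeats a cycle of dehydrogenation, hydration, a further dehydrogenation and thiolytic cleavage, and passes its first electrons to the respiratory chain through the electron transfer flavoprotein. Peroxisomes run a parallel cycle on very long and branched chains and hand shortened products on as carnitine esters. Malonyl-CoA, the product of acetyl-CoA carboxylase, inhibits the outer carnitine transferase. Fatty acid oxidation is known from work on memory T cells as a pathway that supports their longevity.

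Levels are FPKM, fragments scaled to transcript length and library size, so genes can be compared per length. Estimated depth was about 11600000 and 6300000 fragments in CCR7loCD137hi replicates 1 and 2, and about 20600000 and 13000000 in CCR7hiCD137lo replicates 1 and 2. The genes used for the sort followed the labels and are no finding: Ccr7 was at 39.6 and 38.2 FPKM in CCR7loCD137hi against 93.4 and 118.4 FPKM in CCR7hiCD137lo, and Tnfrsf9, which encodes CD137, at 158.2 and 183.8 against 0.961 and 6.25 FPKM. The 8 T cell genes checked, Cd3e and Cd4 among them, summed to 1310 and 1550 FPKM in CCR7loCD137hi and 1460 and 1540 FPKM in CCR7hiCD137lo. In such bulk libraries, fewer cells of a type and less RNA per cell cannot be told apart.

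Fatty acid oxidation genes were expressed in both populations, and 30 of the 32 tested differed by less than 0.5 on the log2 scale. Eci1, an enoyl-CoA isomerase gene of the mitochondrial matrix, showed the largest difference of the tested members with all 4 libraries, at about 2.26 times the level in CCR7loCD137hi. Etfb, Acadl and Crat were also higher there in both libraries, by smaller or more variable amounts. Cpt1b, Echs1 and Hadha were higher in both CCR7loCD137hi libraries too, by less than 0.3 on the log2 scale. Hsd17b4, Acaa1b, Abcd3 and Acaa2 were lower in both CCR7loCD137hi libraries, by less than 0.3 on the log2 scale. Thus 7 of the 32 were higher and 4 lower without overlap, where 16.6% and 21.5% of all tested genes were. None of these differences passed the test over all genes.

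Of the 34 members, 33 were above 0 in every library, 26 averaged at least 5 FPKM and 11 at least 20 FPKM. Cpt1c and Ppara averaged under 1 FPKM and were not tested. The other 32 were fitted with limma, a linear model with moderated variances, on log2(FPKM + 1) across all 10496 genes that averaged at least 1 FPKM, and p-values were adjusted by Benjamini-Hochberg over all of them. Differences below are CCR7loCD137hi minus CCR7hiCD137lo on that log2 scale, which understates the change of low genes. No tested member had an adjusted p under 0.05, among 21 mitochondrial, 8 peroxisomal and 3 shared genes. Of all tested genes 0.0572% were called, 0.0476% higher and 0.00953% lower in CCR7loCD137hi, so calls were rare throughout. At an unadjusted limma p under 0.05 there were 2 members, Eci1 and Etfb, both higher, and none lower. By that measure 8.13% of all tested genes were counted, 4.64% higher and 3.49% lower. A difference of at least 0.5 in size, seen in Eci1 and Crat, was found in 10.6% of all tested genes.

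**Figure D1:**
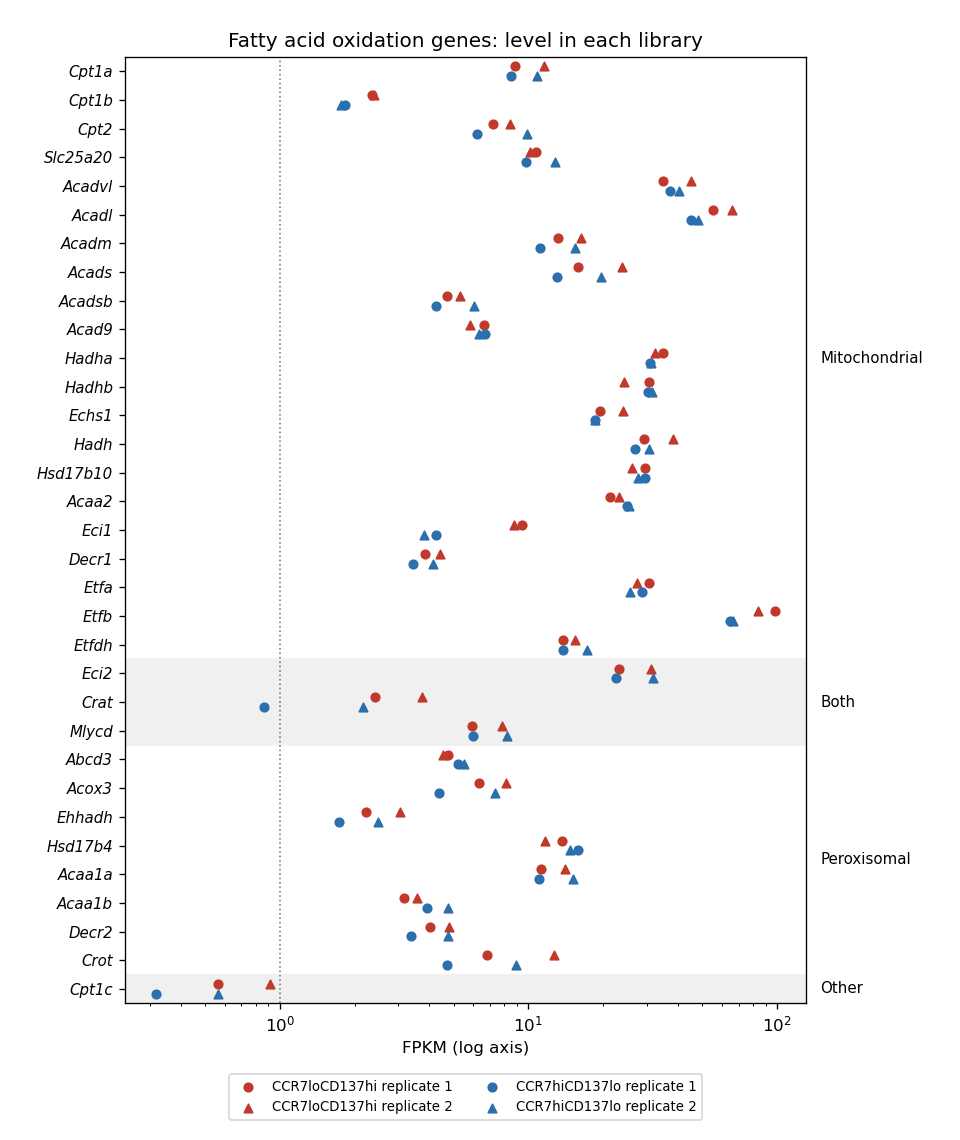
FPKM of 33 members in each library, on a log axis, grouped by compartment (red, CCR7loCD137hi; blue, CCR7hiCD137lo; circles, replicate 1; triangles, replicate 2; dotted line, 1 FPKM). Etfb and Acadl stand highest, Cpt1c stands below 1 FPKM, and the red and blue points of Eci1 lie clearly apart; Ppara, at 0 in 1 library, is not drawn.

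The 4 tested genes of the carnitine shuttle had fitted differences of at most 0.27 in size. Cpt1a, the outer-membrane carnitine palmitoyltransferase of most tissues and the step that malonyl-CoA inhibits, was at 8.80 and 11.5 FPKM in CCR7loCD137hi against 8.53 and 10.8 FPKM in CCR7hiCD137lo. Both populations had their higher value in the library numbered 2, and the groups overlapped. The log2 difference was 0.06, with a 95% interval from −0.47 to 0.60 (limma adjusted p = 0.958), so differences of that size in either direction lie within the error. Cpt2, the inner-membrane transferase, was at 7.18 and 8.45 FPKM in CCR7loCD137hi against 6.19 and 9.89 FPKM in CCR7hiCD137lo. Slc25a20, the carnitine-acylcarnitine carrier, was at 10.7 and 10.2 against 9.77 and 12.8 FPKM. For both genes the CCR7loCD137hi values lay between the 2 CCR7hiCD137lo values.

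Cpt1b, the muscle form of the outer transferase, was expressed at a lower level than Cpt1a and its groups did not overlap. It was at 2.36 and 2.40 FPKM in CCR7loCD137hi against 1.83 and 1.77 FPKM in CCR7hiCD137lo, a log2 difference of 0.27 (SE 0.185, limma adjusted p = 0.76). An annotated overlapping gene, Gm44502, shares 81.4% of the exon bases of Cpt1b on the same strand and is not among the symbols analysed, so reads of either could be counted on Cpt1b. Cpt1c, the neuronal form, was at 0.563 and 0.914 FPKM in CCR7loCD137hi against 0.317 and 0.562 FPKM in CCR7hiCD137lo. That corresponds to roughly 17 and 15 fragments against 17 and 19, too few for an order of the groups to be read.

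Among the acyl-CoA dehydrogenases, which start each cycle and are sorted by chain length, Acadl had the highest level and the largest difference. Acadl, the long-chain enzyme, was at 55.3 and 66.2 FPKM in CCR7loCD137hi against 45.2 and 48.3 FPKM in CCR7hiCD137lo. Neither of its CCR7hiCD137lo values reached the lower of its CCR7loCD137hi values. Its log2 difference was 0.37 (SE 0.144, limma adjusted p = 0.624). Acadvl, the very-long-chain enzyme of the inner membrane, was at 34.7 and 45.2 FPKM in CCR7loCD137hi against 37.0 and 40.2 FPKM in CCR7hiCD137lo. The CCR7hiCD137lo values lay inside the CCR7loCD137hi range. Of the exon bases of Acadvl, 42.9% are shared with Dvl2 on the opposite strand, and whether strand was used in counting is not given in the sources used here.

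Acads and Acadm, for short and medium chains, differed more between replicate numbers than between populations. Acads was at 15.8 and 23.8 FPKM in CCR7loCD137hi against 13.03 and 19.5 FPKM in CCR7hiCD137lo. Acadm was at 13.2 and 16.3 FPKM against 11.1 and 15.5 FPKM. The groups overlapped for both, and the log2 differences were 0.27 and 0.15. Acadsb, which acts on the short branched chain from isoleucine, and Acad9, better known as an assembly factor of respiratory complex I, stood lower, between 4.26 and 6.70 FPKM over all libraries. Their log2 differences were −0.02 and −0.06, and their groups overlapped.

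The genes of the hydratase, dehydrogenase and thiolase steps had fitted differences of at most 0.21 in size. Hadha and Hadhb encode the alpha and beta subunits of the mitochondrial trifunctional protein, which carries out these steps on long chains. Hadha was at 34.8 and 32.4 FPKM in CCR7loCD137hi against 30.8 and 31.1 FPKM in CCR7hiCD137lo, with no overlap and a log2 difference of 0.11 (SE 0.12, limma adjusted p = 0.854). Hadhb was at 30.5 and 24.1 FPKM against 30.2 and 31.3 FPKM, a log2 difference of −0.17 (SE 0.159, limma adjusted p = 0.822). The value for Hadhb was −0.0108 without CCR7loCD137hi replicate 2 and −0.34 without CCR7loCD137hi replicate 1, and the 95% interval of each subunit gene included 0. Sequence shared with a copy, Gm13910, covers 56.6% of the 50-nt stretches of Hadhb transcripts, so its value is less certain than that of Hadha.

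Hadha and Hadhb lie head to head on chromosome 5 of mm10, with 272 bases between their RefSeq starts. The 250 bases before the start of Hadha are shown because they hold nearly all of that interval (chr5:30154981-30155230, minus strand, RefSeq on GRCm38.p6). Capitals mark the reverse complement of GGGCGG, a GC box.
Hadha upstream: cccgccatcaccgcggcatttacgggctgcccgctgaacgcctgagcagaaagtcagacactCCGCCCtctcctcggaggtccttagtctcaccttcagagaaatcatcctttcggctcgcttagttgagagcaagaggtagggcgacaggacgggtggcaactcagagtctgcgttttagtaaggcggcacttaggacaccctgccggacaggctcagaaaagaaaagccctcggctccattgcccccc

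Short-chain enzymes of the same steps had the following levels. Echs1, the short-chain enoyl-CoA hydratase, was at 19.4 and 23.9 FPKM in CCR7loCD137hi against 18.5 and 18.5 FPKM in CCR7hiCD137lo, without overlap (log2 difference 0.21, SE 0.152, limma adjusted p = 0.771). That difference was 0.0695 without CCR7loCD137hi replicate 2 and 0.36 without CCR7loCD137hi replicate 1. Hadh, the 3-hydroxyacyl-CoA dehydrogenase of short and medium chains, was at 29.2 and 38 FPKM against 26.9 and 30.5 FPKM, with overlap. Hsd17b10, a multifunctional dehydrogenase that is also a subunit of mitochondrial RNase P, was between 26.1 and 29.5 FPKM in all 4 libraries. Acaa2, the mitochondrial 3-ketoacyl-CoA thiolase, was the single mitochondrial member lower in both CCR7loCD137hi libraries than in both CCR7hiCD137lo libraries. It was at 21.3 and 23.1 FPKM against 25.0 and 25.4 FPKM, a log2 difference of −0.18 (SE 0.124, limma adjusted p = 0.769).

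Eci1 had the largest difference with all 4 libraries. Its product shifts the double bond of unsaturated fatty acids so that they can continue through the cycle. Eci1 (mm10 chromosome 17, 24426683 to 24439316) was at 9.47 and 8.72 FPKM in CCR7loCD137hi against 4.25 and 3.81 FPKM in CCR7hiCD137lo. Both CCR7loCD137hi libraries were high and close to each other, and the groups did not overlap. The mean was 9.10 ± 0.527 FPKM in CCR7loCD137hi and 4.03 ± 0.318 FPKM in CCR7hiCD137lo (SD, n = 2 each). The log2 difference was 1.01 (SE 0.149, 95% interval 0.61 to 1.40), with a limma adjusted p of 0.296, and it ranked 54 by p-value among the 10496 genes. About 103 and 52 fragments lay behind the values in CCR7loCD137hi and 82 and 46 in CCR7hiCD137lo. When each library was left out in turn, the log2 difference ran from 0.94 to 1.07. Crat had a larger value than Eci1 in 2 of those 4 fits, at 1.11 against 0.94 without CCR7hiCD137lo replicate 2 and 0.962 against 0.953 without CCR7loCD137hi replicate 1.

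The bases before the start of Eci1 are shown because of that difference (chr17:24426433-24426682, plus strand, RefSeq on GRCm38.p6). Capitals mark GGGCGG, with its first base 65 bases before the start (position −65).
Eci1 upstream: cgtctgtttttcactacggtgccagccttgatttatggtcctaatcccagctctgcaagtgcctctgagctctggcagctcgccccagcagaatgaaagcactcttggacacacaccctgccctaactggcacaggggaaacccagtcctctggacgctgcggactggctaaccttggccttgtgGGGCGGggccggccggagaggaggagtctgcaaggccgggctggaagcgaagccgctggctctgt

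Sequence motifs were searched on both strands in the 250 bases before the starts of the 28 members with a RefSeq promoter sequence. The direct repeat of AGGTCA with 1 base between, the form bound by PPAR and RXR receptors, was found in 0 of 28 members and in 0.0536% of 7465 tested genes with a promoter sequence. TCAAGGTCA, the form bound by estrogen-related receptors, was also found in 0 of 28, against 0.375% of tested genes. The palindromic core bound by NRF1 was found in 4 members (Abcd3, Etfb, Etfdh and Ppara), or 14.3%, against 10.4% of tested genes. Ppara and Cpt1c are among the 28 but were not tested, so member shares and tested-gene shares cover unlike sets. GGGCGG was found in 20 members, or 71.4%, against 65.5% of tested genes. Both receptor-bound forms were so rare in tested genes that 0 of 28 was the likely count for any such set. These counts describe exact letters in a short window, and looser forms or sites farther away were not searched. Decr1, Acad9, Crat, Cpt1b, Hsd17b4 and Acaa2 were not searched.

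The isoenzymes and partners of Eci1 in the oxidation of unsaturated chains had smaller fitted differences. Eci2, the enoyl-CoA isomerase of peroxisomes and mitochondria, was at 23.2 and 31.2 FPKM in CCR7loCD137hi against 22.6 and 31.6 FPKM in CCR7hiCD137lo. Its log2 difference was 0.01 (95% interval −0.62 to 0.64), and 5.31% of its 50-nt stretches are shared with Eci3. Decr1, the mitochondrial 2,4-dienoyl-CoA reductase, was at 3.85 and 4.41 FPKM against 3.42 and 4.12 FPKM, and Decr2, its peroxisomal counterpart, was at 4.03 and 4.78 FPKM against 3.38 and 4.77 FPKM. All 3 overlapped between the groups. Whether the difference of Eci1 exceeded theirs was not tested.

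Etfb and Etfa encode the subunits of the electron transfer flavoprotein, and Etfdh encodes the oxidoreductase that passes its electrons to ubiquinone. Etfb had the highest level of all members, at 98.5 and 84.1 FPKM in CCR7loCD137hi against 64.8 and 66.3 FPKM in CCR7hiCD137lo. The groups did not overlap, and the log2 difference was 0.47 (SE 0.133, 95% interval 0.11 to 0.82, limma adjusted p = 0.534). Etfa was at 30.5 and 27.3 FPKM against 28.7 and 25.6 FPKM, and Etfdh at 13.8 and 15.4 FPKM against 13.8 and 17.2 FPKM, both with overlap. Etfb thus stood above its partner Etfa in every library, and Etfa had a log2 difference of 0.08. Gm45233, an annotated gene on the same strand, shares 53.0% of the exon bases of Etfb and is likewise not among the symbols analysed.

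**Figure D2:**
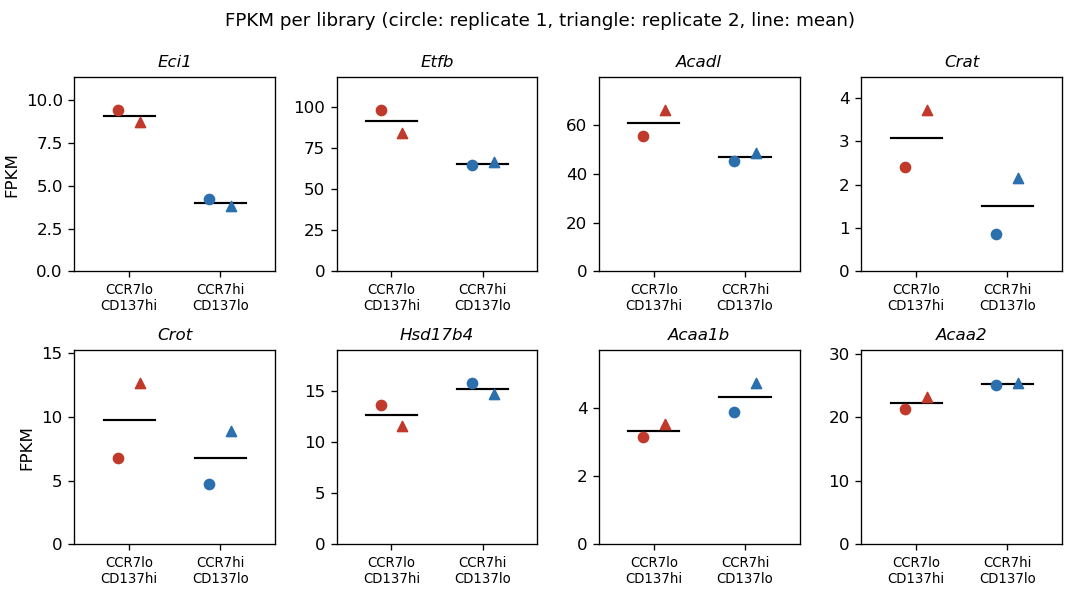
FPKM in each library for 8 members, on linear axes from 0 (red, CCR7loCD137hi; blue, CCR7hiCD137lo; circle, replicate 1; triangle, replicate 2; line, mean of 2 libraries). Eci1, Etfb, Acadl and Crat lie higher and Hsd17b4, Acaa1b and Acaa2 lower in both CCR7loCD137hi libraries, while for Crot the replicate 1 value of CCR7loCD137hi, 6.79 FPKM, lies below the replicate 2 value of CCR7hiCD137lo, 8.91 FPKM.

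Summed over the 21 mitochondrial members, expression was 479.9 and 503.0 FPKM in CCR7loCD137hi against 419.5 and 452.7 FPKM in CCR7hiCD137lo. Without Etfb and Acadl, a split made after the values were seen, the other 19 summed to 326.1 and 352.7 FPKM against 309.5 and 338.0 FPKM, and the groups overlapped. Of these 21 genes, 13 were fitted above 0 and 8 below, with a median log2 difference of 0.08. Over all tested genes, 47.9% were fitted above 0 and the median was −0.01. Without overlap, 6 mitochondrial members were higher and 1 was lower in CCR7loCD137hi, against 16.6% and 21.5% of all tested genes. The 17 genes of mitochondrial import, channels, cristae and fusion, with citrate synthase, a list meant to track mitochondrial content, had a median log2 difference of 0.06, with 12 fitted above 0 and none called. Of its most expressed genes, Vdac1, an outer-membrane channel, was at 167.1 and 190.5 FPKM in CCR7loCD137hi against 136.5 and 154.4 FPKM in CCR7hiCD137lo, and Phb2, a prohibitin, at 176.5 and 128.9 against 148.9 and 118.8 FPKM.

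Peroxisomal members were split in direction. Crot and Acox3 were fitted higher in CCR7loCD137hi, and Acaa1b, Hsd17b4 and Abcd3 were lower in both of its libraries. Of the 8, 4 were fitted above 0 and 4 below, with a median log2 difference of 0.03, and 3 lay below without overlap and none above, where 21.5% of all tested genes lay below and 16.6% above. None was called, and none had an unadjusted p under 0.05. Their summed level was 52.2 and 62.4 FPKM in CCR7loCD137hi against 50.2 and 63.6 FPKM in CCR7hiCD137lo.

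Abcd3, the peroxisomal membrane transporter that takes up acyl-CoA, was at 4.77 and 4.54 FPKM in CCR7loCD137hi against 5.23 and 5.52 FPKM in CCR7hiCD137lo. Its log2 difference was −0.17 (SE 0.148, limma adjusted p = 0.808). Acox3, an acyl-CoA oxidase of branched chains, was at 6.34 and 8.11 FPKM against 4.35 and 7.33 FPKM. Its groups overlapped, and its log2 difference of 0.29 came with an SE of 0.273.

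Hsd17b4 and Ehhadh encode the D- and L-bifunctional proteins, which hydrate and dehydrogenate in peroxisomes. Hsd17b4 was at 13.7 and 11.6 FPKM in CCR7loCD137hi against 15.8 and 14.7 FPKM in CCR7hiCD137lo, without overlap, a log2 difference of −0.25 (SE 0.146, limma adjusted p = 0.73). Ehhadh, a gene strongly induced through PPARα in rodent liver, was low, at 2.23 and 3.04 FPKM against 1.74 and 2.49 FPKM, with overlap. These bifunctional genes had fitted differences of opposite sign, and the difference between them was not tested.

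Acaa1a and Acaa1b are the mouse genes of the peroxisomal thiolase and lie 184.2 kb apart on chromosome 9. Acaa1a was at 11.2 and 14.0 FPKM in CCR7loCD137hi against 11.045 and 15.1 FPKM in CCR7hiCD137lo, with overlap. Acaa1b was at 3.15 and 3.55 FPKM against 3.89 and 4.76 FPKM, without overlap, a log2 difference of −0.29 (SE 0.18, limma adjusted p = 0.753). Stretches of 50 nt found in the other gene made up 35.5% of Acaa1b and 26.7% of Acaa1a, so reads can be split between them and which of the pair differs is uncertain. On the opposite strand, Dlec1 covers 11.4% of the exon bases of Acaa1b and Myd88 covers 6.57% of those of Acaa1a.

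Crot and Crat varied widely between libraries. Crot, which makes carnitine esters of the medium-chain products leaving peroxisomes, was at 6.79 and 12.7 FPKM in CCR7loCD137hi against 4.70 and 8.91 FPKM in CCR7hiCD137lo. In either population the library numbered 2 was far above the library numbered 1, and the groups overlapped. The log2 difference was 0.46, with a 95% interval from −0.60 to 1.52 (limma adjusted p = 0.813). It ran from 0.0511 without CCR7loCD137hi replicate 2 to 0.86 without CCR7loCD137hi replicate 1, and was 0.0598 and 0.86 without CCR7hiCD137lo replicates 1 and 2. Crat, the carnitine acetyltransferase that buffers acetyl-CoA, was at 2.41 and 3.73 FPKM in CCR7loCD137hi against 0.865 and 2.16 FPKM in CCR7hiCD137lo. The groups did not overlap, though CCR7loCD137hi replicate 1 and CCR7hiCD137lo replicate 2 were close. Its log2 difference was 0.73 (SE 0.349, limma adjusted p = 0.689), with 113 and 95 fragments against 72 and 113. The antisense gene Gm16323 covers 7.63% of its exon bases. The fitted value ran from 0.35 without CCR7hiCD137lo replicate 1 to 1.11 without CCR7hiCD137lo replicate 2.

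Mlycd, malonyl-CoA decarboxylase, removes the inhibitor of Cpt1. It was at 5.92 and 7.82 FPKM in CCR7loCD137hi against 5.99 and 8.21 FPKM in CCR7hiCD137lo, a log2 difference of −0.04 (95% interval −0.63 to 0.55). Ppara, the receptor that drives these genes in liver, was at 0.0122 and 0 FPKM against 0.0138 and 0.0106 FPKM. The limit of detection, taken as 3 fragments on a transcript of 1 kb, was 0.258 and 0.475 FPKM in CCR7loCD137hi and 0.146 and 0.231 FPKM in CCR7hiCD137lo. Ppara lay under it in all 4 libraries, so no fold is given. These limits cover counting error only.

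**Figure D3:**
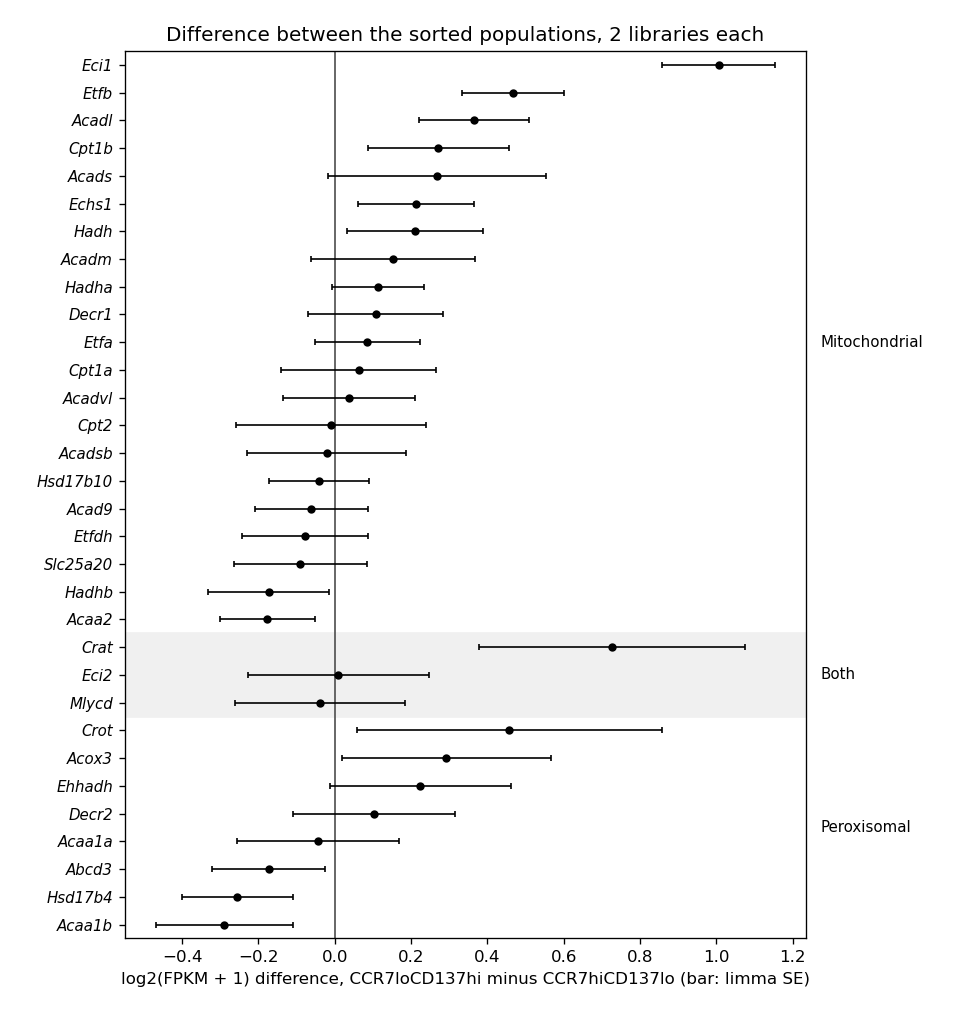
Log2(FPKM + 1) difference, CCR7loCD137hi minus CCR7hiCD137lo, for the 32 tested members, grouped by compartment and ordered within it (points, limma estimate from 2 libraries each; bars, SE). Eci1 lies at 1.01 and Crat at 0.73, and the other 30 members lie within 0.5 of 0.

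Among regulators of the pathway outside the members, 15 were tested, with 7 fitted above 0, 8 below, a median log2 difference of −0.05 and none called. Sirt3, a mitochondrial deacetylase of oxidation enzymes and the single gene of the list with an unadjusted p under 0.05, was at 6.81 and 6.65 FPKM in CCR7loCD137hi against 4.31 and 4.62 FPKM in CCR7hiCD137lo, without overlap, a log2 difference of 0.50 (SE 0.145, limma adjusted p = 0.537). The most expressed of the list, Ncor1, a corepressor, and Rxrb, a partner of PPAR receptors, were at 23.0 and 28.6 against 28.02 and 30.9 FPKM and at 19.1 and 21.9 against 18.6 and 19.9 FPKM. Of 10 PPAR target genes outside the members, 4 were expressed enough to test and none was called. Ucp2, a mitochondrial carrier, was at 170.4 and 187.1 FPKM in CCR7loCD137hi against 172.6 and 200.6 FPKM in CCR7hiCD137lo. Txnip was at 25.6 and 54.1 against 21.3 and 55.3 FPKM. Pdk4, Fgf21 and the coactivator gene Ppargc1a were listed at 0 in all 4 libraries.

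Other peroxisomal lipid genes numbered 16 tested, with 9 fitted above 0, 7 below, a median of 0.01 and none called. Scp2, whose products include a peroxisomal thiolase and a lipid carrier, was the single gene with an unadjusted p under 0.05, at 20.5 and 21.5 FPKM in CCR7loCD137hi against 25.97 and 27.1 FPKM in CCR7hiCD137lo, without overlap (log2 difference −0.32, SE 0.121, limma adjusted p = 0.613). Ech1, a dienoyl-CoA isomerase, and Phyh, which starts phytanic acid breakdown, were the most expressed. Ech1 was at 49.0 and 61.2 against 47.0 and 52.3 FPKM, and Phyh at 24.5 and 29.7 against 30.5 and 35.1 FPKM. The 13 tested genes of peroxisome biogenesis had 7 fitted above 0, a median of 0.02 and no call. Pex19, an import receptor of membrane proteins, was at 12.9 and 14.4 against 13.5 and 15.0 FPKM.

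Of 18 other mitochondrial acyl-CoA enzymes tested, which include those of branched amino acids and propionate, 9 were fitted above 0 and 9 below (median 0.02, no call). Hibadh of valine breakdown was at 35.1 and 39.6 FPKM in CCR7loCD137hi against 39.5 and 42.8 FPKM in CCR7hiCD137lo, and Acot13, a thioesterase gene, at 20.8 and 33.8 against 22.3 and 25.5 FPKM. Ketone body genes had 4 tested, 1 fitted above 0 and none called. Oxct1, which activates ketone bodies for use, was at 42.7 and 39.9 against 50.4 and 44.3 FPKM, and Acat1, the acetoacetyl-CoA thiolase, at 21.0 and 18.4 against 24.1 and 19.7 FPKM.

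Marker genes of B, CD8 T and NK, myeloid and erythroid cells had higher summed levels in both CCR7loCD137hi libraries. The 6 B cell genes summed to 5 and 0.529 FPKM in CCR7loCD137hi against 0.117 and 0.186 FPKM in CCR7hiCD137lo. The 6 CD8 T and NK genes summed to 49.5 and 38.9 against 12.7 and 23.7 FPKM. Within both library numbers, 3 of the B cell genes and 5 of the CD8 T and NK genes were higher in CCR7loCD137hi. Eomes had the highest level of the CD8 T and NK list. Cd8a of that list was at 3.68 and 0.218 FPKM in CCR7loCD137hi against 0 and 0.0265 FPKM in CCR7hiCD137lo. Ncr1 was at 1.91 and 0.251 against 0 and 0 FPKM. The 9 myeloid genes found summed to at most 0.571 FPKM in any library, with Csf1r, S100a8, S100a9 and Flt3 at 0 in all. The 9 erythroid and platelet genes summed to 1.27 and 2.29 against 0.306 and 0.536 FPKM, with Hbb-b1, Hbb-b2, Pf4 and Ppbp at 0 in all. Of 6 regulatory T cell genes, 4 were higher in both CCR7loCD137hi libraries, and the list summed to 782 and 464 against 584 and 560 FPKM. Most of that sum in every library was Il2ra, at 548.8 and 345.5 against 537.9 and 518.4 FPKM. Foxp3, the lineage factor of regulatory T cells, was at 47.9 and 10.97 against 0.853 and 0.181 FPKM. Lrrc32 of the regulatory T list was at 28.8 and 26.8 FPKM in CCR7loCD137hi against 3.99 and 9.55 FPKM in CCR7hiCD137lo. From the CD8 T and NK list, Eomes was at 26.5 and 28.5 against 9.42 and 17.2 FPKM, and Klrd1 at 8.55 and 5.97 against 0.658 and 1.97 FPKM. Ikzf2 of the regulatory T list was at 12.9 and 5.94 against 0.204 and 0.399 FPKM. Ctla4 of that list was at 138.7 and 70.0 against 37.5 and 23.5 FPKM. Without overlap, 4 of the 6 regulatory T genes and 2 of the 3 tested CD8 T and NK genes were higher in CCR7loCD137hi. Of all tested genes, 16.6% were. Il2ra and Nrp1 of the regulatory T list overlapped, with log2 differences of −0.28 and −0.21. Cd8b1 of the CD8 T and NK list also overlapped, at 8.48 and 3.78 FPKM in CCR7loCD137hi against 2.63 and 4.56 FPKM in CCR7hiCD137lo. The part of these cell types in the members' differences was not tested.

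Of the 32 tested members, 20 (62.5%) were higher in replicate 2 than in replicate 1 in both populations and 5 were lower in both, against 44.7% and 29.4% of all tested genes. By compartment the higher ones were 11 of 21 mitochondrial, 6 of 8 peroxisomal and 3 of 3 shared members. The median absolute log2 difference over the members was 0.221 between the CCR7loCD137hi libraries and 0.223 between the CCR7hiCD137lo libraries. It was 0.153 between the populations in the libraries numbered 1 and 0.185 in those numbered 2. Over all tested genes the medians were 0.239 between the CCR7loCD137hi libraries and 0.19 between the CCR7hiCD137lo libraries. Between the populations they were 0.177 and 0.185 in the libraries numbered 1 and 2, the latter close to the 0.19 within CCR7hiCD137lo. What the numbers 1 and 2 share is not stated by the labels.

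**Figure D4:**
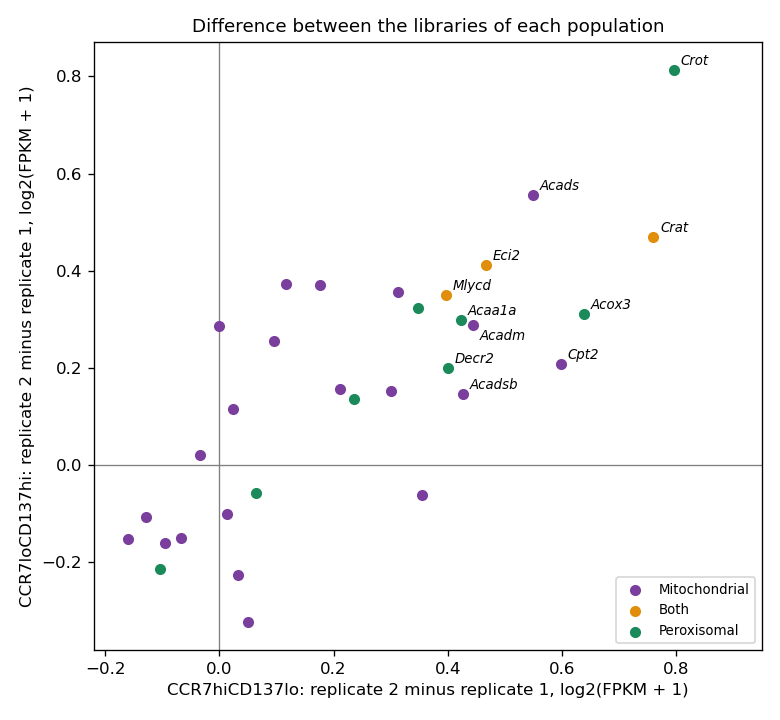
Difference between replicate 2 and replicate 1 in log2(FPKM + 1) for the 32 tested members, within CCR7loCD137hi (vertical axis) and within CCR7hiCD137lo (horizontal axis), coloured by compartment. The 20 members in the upper right quadrant were higher in replicate 2 in both populations, with Crot farthest out, and the 5 in the lower left were lower in both.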

How the data were processed

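Polyadenylated RNA of 4 libraries was measured, 2 of each sorted population, with a TruSeq Stranded mRNA kit, per the labels' protocols. The authors deposited 1 table of FPKM values per library, laid out, per the file headers, like gene-level output of Cufflinks. The submitters' processing notes list the build mm10 and the tools Cufflinks 2.0.2, TopHat 1.3.2 and Bowtie 0.12.8, without roles. Neither annotation and filters nor scaling between libraries and use of strand were found there: not given in the sources used here.

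Of 23746 entries per table, the entry of highest mean FPKM was kept for each of 23284 symbols. Genes averaging at least 1 FPKM were tested with limma 3.58.1 under R 4.3.3 on the log2(FPKM + 1) scale (variance trend, 2 residual and 2.54 prior degrees of freedom), two-sided, with a Benjamini-Hochberg adjusted p under 0.05 as the threshold. With 2 libraries a group, the smallest two-sided p of an exact permutation test is 0.333. The test was tried on simulated data with independent noise in each library, which lacks any deviation shared by same-numbered libraries. Members and gene lists were chosen with earlier results of these data known. Values in every library were given for members with an unadjusted p under 0.05, for those whose groups did not overlap and that differed by at least 0.5, and for the 3 most expressed of each role; those of further members were added. Other lists give called genes, otherwise the 2 most expressed and any at an unadjusted p under 0.05. Some genes of these lists are not reported here.

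Depth is not stated. Relative depth came from ratios of values under 0.3 FPKM, of which 68.3%, 67.0% and 67.4% (CCR7loCD137hi replicates 1 and 2 and CCR7hiCD137lo replicate 2, each against CCR7hiCD137lo replicate 1) were ratios of whole fragments to within 0.002 on the natural log scale. Absolute depth, and fragments per gene, rest on 42 single-exon genes and an assumed fragment of 200 nt, and are approximate. Starts in the files were raised by 1. Exon overlaps and shared stretches of 50 nt came from GENCODE M21 on mm10. Alternatives changed the pseudocount, filter, scaling, variance trend, entries per symbol, replicate block and libraries. Python 3.11.15, numpy 2.4.6, pandas 2.3.3 and matplotlib 3.10.9 were used.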

Additional observations from a re-analysis of the deposited data

How the results depend on the processing

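No fatty acid oxidation gene and no gene of the other pathway lists was called under any of the 13 alternatives. Large differences also went uncalled in the main fit, such as Foxp3 at 4.03 on the log2 scale (limma adjusted p = 0.346). A missing call therefore does not show that levels were equal. Over all genes the 6 calls became 42 with a replicate block, 2 with quantile normalization, 1 with no filter, 2 without a variance trend, and 12 to 30 when a library was left out. The replicate block, which removes differences between the numbers 1 and 2, gave the lowest adjusted p of a member, 0.072 for Eci1, whose adjusted p ran from 0.072 to 0.892 over alternatives. With that block 6 members had an unadjusted p under 0.05, against 21.7% of all genes. Same-numbered libraries deviated together from their group means (r = 0.214 across all tested genes, 0.771 across the 32 members, which are not independent), but the labels do not say that a number marks a shared batch, and both groups hold 2 libraries. The median log2 difference ran from −0.00728 to 0.212 for mitochondrial members (0.212 without CCR7hiCD137lo replicate 2) and from −0.15 to 0.24 for peroxisomal members when a library was left out. Every sign of a tested member held in the alternatives that kept all 4 libraries. Changing the filter, variance trend, replicate block or entries per symbol leaves a member's fitted difference unchanged by construction. Only the changed pseudocounts and scalings could have turned a sign. Left-out libraries, which hold the numbers unequally, turned the sign of 15 members, with ranges of −0.12 to 0.24 for Cpt1a, −0.31 to 0.29 for Cpt2, −0.27 to 0.0871 for Slc25a20, −0.15 to 0.22 for Acadvl, −0.0686 to 0.37 for Acadm, −0.0109 to 0.55 for Acads, −0.23 to 0.19 for Acadsb, −0.14 to 0.0147 for Acad9, −0.12 to 0.0397 for Hsd17b10, −0.23 to 0.0735 for Etfdh, −0.0264 to 0.61 for Acox3, −0.25 to 0.17 for Acaa1a, −0.10 to 0.30 for Decr2, −0.22 to 0.24 for Eci2 and −0.24 to 0.16 for Mlycd. The cause was not tested. CCR7loCD137hi replicate 2 is the shallowest library, with about 15 fragments behind Cpt1c, 33 behind Acaa1b and 41 behind Cpt1b.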

Other observations

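Outside the rule for naming, and chosen after their values were seen, 5 further genes of the pathway lists had a log2 difference of more than 0.4 in size, none of them called. Auh, an enoyl-CoA hydratase of leucine breakdown that also binds RNA, was at 11.4 and 28.2 FPKM in CCR7loCD137hi against 6.61 and 12.03 FPKM in CCR7hiCD137lo. The groups overlapped, and its log2 difference was 0.94 (SE 0.50, limma adjusted p = 0.718). Pex26, which anchors the export machinery of peroxisomal import receptors, was at 1.87 and 1.87 FPKM against 2.81 and 3.10 FPKM, without overlap, a log2 difference of −0.46 (SE 0.181, limma adjusted p = 0.624). Pecr, a peroxisomal enoyl-CoA reductase, was at 3.93 and 2.09 FPKM in CCR7loCD137hi against 1.33 and 1.80 FPKM in CCR7hiCD137lo, without overlap (log2 difference 0.61, SE 0.301, limma adjusted p = 0.701). Lpin1, a phosphatidate phosphatase and coactivator, was at 11.4 and 25.0 against 7.31 and 18.8 FPKM, and Plin2, a lipid droplet coat protein, at 10.99 and 15.8 against 6.18 and 13.9 FPKM. The groups overlapped for both, with log2 differences of 0.49 and 0.46 (limma adjusted p = 0.864 and 0.815).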
